A study of Mus musculus with 9 samples.

Results

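The 10 genes described here encode the calcium pumps, release channels, calcium stores and surface calcium channels of striated muscle, with the small peptides that hold the pumps in check. They are Atp2a1, Atp2a2, Sln, Pln, Ryr1, Ryr2, Casq1, Casq2, Cacna1s and Cacna1c, and were chosen by gene name from a table of RNA sequencing counts of sham quadriceps muscle and sham heart. The 10 genes are among 24537 gene names in that table and hold 24 of its 35745 RefSeq transcript rows. All 10 passed the filter on low counts and were among 14906 genes tested.

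RNA sequencing was performed on total RNA of C57Bl6 mice by the labels, given as male C57Bl/6JCrl mice in the study's methods. The mice were 8 weeks old when they underwent surgery, and tissues were taken 12 weeks later. The groups were sham heart (n = 3 libraries), sham quadriceps muscle (n = 3) and quadriceps muscle after transverse aortic constriction (TAC, n = 3), a narrowing of the aorta that loads the left ventricle with pressure. All mice were wild type, and by their labels the sham groups differ only in tissue. The labels do not say which chambers the heart samples held, whether heart and quadriceps came from the same mice, or that each library is a separate mouse, so that p-values measure the spread between libraries. Total counts ranged from 33102826 to 38382751 in heart and from 23383452 to 32989108 in quadriceps.

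The tissues matched their labels. Summed over 8 cardiomyocyte markers, TMM-scaled CPM, the count over the scaled library size, was 37592, 34674 and 35141 in heart and 130, 261 and 98.4 in quadriceps. The cardiomyocyte transcription factor Nkx2-5 had 672, 697 and 608 counts in heart and 0 in every quadriceps library. Summed over 8 fast-fiber markers, CPM were 28.5, 24.7 and 21.7 in heart and 61996, 82680 and 87127 in quadriceps.

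In a muscle fiber, the L-type channel of the surface membrane senses the action potential, the ryanodine receptor releases calcium from the sarcoplasmic reticulum, and the sarco/endoplasmic reticulum calcium ATPase (SERCA) pumps it back. Calsequestrin binds calcium inside the store. In skeletal muscle the surface channel opens the release channel by direct contact, while in the heart the calcium that enters through the surface channel triggers release. The genes form 5 pairs, of which 4 hold a form known from skeletal and one known from cardiac muscle. They are Atp2a1 and Atp2a2, Sln and Pln, Ryr1 and Ryr2, Casq1 and Casq2, Cacna1s and Cacna1c. Sln and Pln were paired as the regulators of the pumps, with Sln, known from atrial and skeletal muscle, set in the skeletal place.

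Of the 10 genes, 4 were higher in quadriceps and 5 were lower, and 1, Sln, passed in neither direction. The 4 were Atp2a1, Ryr1, Casq1 and Cacna1s, and the 5 were Atp2a2, Pln, Ryr2, Casq2 and Cacna1c. These counts hold with a log2 fold change beyond 2 and an unadjusted p under 0.05. The study used that criterion for genes higher in quadriceps, and it was applied here in both directions. The counts also hold with an adjusted p under 0.05 (edgeR quasi-likelihood test, Benjamini-Hochberg adjustment over all transcripts). Among all tested genes, the fold criterion called 7.14% higher and 9.04% lower in quadriceps, and an adjusted p under 0.05 called 32.1% higher and 33.9% lower. The libraries of the tissues did not overlap for 9 of the 10 genes, against 71.7% of all genes. The 10 genes were chosen with earlier results of these data known, so that these shares are not a test. In whole tissue, fewer cells of a type and less RNA per cell cannot be told apart.

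**Figure D1:**
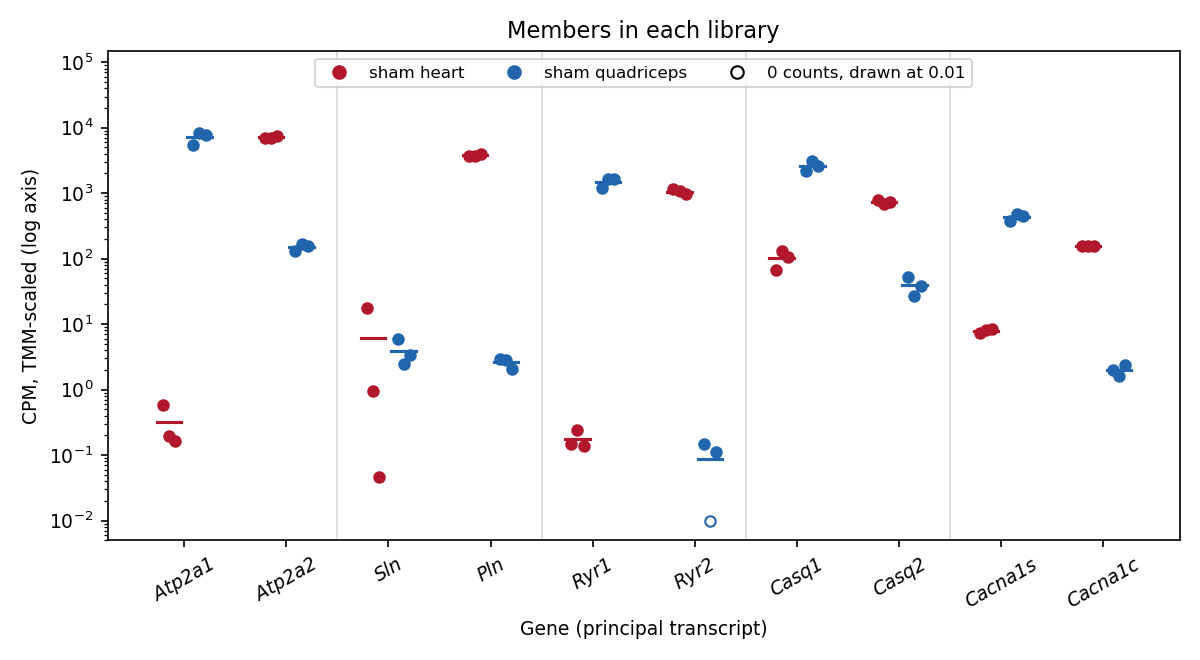
TMM-scaled CPM (log axis) of the principal transcript of each gene, with 1 point for each of 3 sham heart (red) and 3 sham quadriceps (blue) libraries and a line at the mean; an open point is a library with 0 counts. In 9 of the 10 genes the tissues do not overlap, and the 3 heart points of Sln spread from 0.0466 to 17.6 CPM.

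Atp2a1 and Atp2a2 encode the SERCA1 and SERCA2 pumps. Atp2a1 (chr7:126445858-126463108, minus strand, mm10) had 28, 10 and 7 heart counts and 149088, 198147 and 135618 quadriceps counts. It had few counts in every heart library and was the highest of the 10 genes in every quadriceps library. The mean rose from 0.317 ± 0.236 to 7143 ± 1472 CPM (SD, n = 3 each), a log2 fold change of 14.44 (SE 0.47, adjusted p = 1.30e-08), which was 15.23 without heart replicate 1. The heart level was 0.00443% of the quadriceps level, and on the 45 heart counts the 95% Poisson interval of the fold ran from 16864 to 30936, for counting error only. Atp2a1 overlaps the gene Rabep2 on the opposite strand, and the sources used here do not say whether counting used strand.

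Atp2a2 (chr5:122453513-122502225, minus strand) went the other way but remained well detected in quadriceps. Its counts were 336360, 348468 and 315629 in heart and 3590, 4069 and 2798 in quadriceps. The mean fell from 7113 ± 216 to 153 ± 19.5 CPM, a log2 fold change of -5.54 (SE 0.18, adjusted p = 1.18e-08), so that quadriceps kept 2.16% of the heart level. SERCA2 is also the pump of slow fibers, which share most of their markers with the heart. Of 6 slow-fiber markers, Tnnt1 (log2 fold change 3.51) and Tnni1 (7.66) were higher in quadriceps, and Myh7 (-2.03), Myl2 (-5.23), Myl3 (-4.41) and Tnnc1 (-4.61) were lower. Their summed CPM was 10137, 10667 and 10132 in heart and 677, 874 and 800 in quadriceps, where Myh7, with 5103, 8133 and 5585 counts, was the most abundant. Whether slow fibers account for the Atp2a2 counts was not tested.

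Per transcript length, the order of the summed SERCA levels in the tissues depended on the scale and on the Atp2a2 row. With the row of the largest count, NR_027838 of 5704 bases, the deposited RPKM summed to 1618 ± 46.2 in heart and 1619 ± 229 in quadriceps (exact two-sided permutation p = 1, n = 3 each). In heart this row was the lowest of the Atp2a2 rows per length, at 1618 RPKM against 1719 for NM_001110140 and 2125 for NM_009722. Its length spans the exons of both coding ends, described below, so that it can understate Atp2a2 per length. With NM_009722 of 4292 bases, which has nearly the same counts, the sum was 2125 ± 60.9 in heart and 1624 ± 230 in quadriceps, without overlap (exact permutation p = 0.1, the smallest that 3 against 3 libraries allow). On TMM-scaled CPM per kilobase the sums were 1247 ± 37.9 and 2119 ± 434 with NR_027838 (exact permutation p = 0.1), and 1638 ± 49.8 and 2125 ± 435 with NM_009722, where the libraries overlapped (exact permutation p = 0.2). Dividing by library totals in place of TMM moved the median log2 fold change of all genes by -0.748. No order of the SERCA sums is read from these values.

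The Atp2a2 gene makes a short pump, SERCA2a, typical of heart and slow muscle, and a long pump, SERCA2b, found in most cells. Their coding ends are shown because the 2 transcripts part there. The last 30 shared bases are in lower case and the bases of 1 transcript alone in capitals, both read on the minus strand of chromosome 5 in mm10. The short end spans a splice from chr5:122457303-122457426 to chr5:122453514-122454304, and the long end reads on in the exon at chr5:122456340-122457426.
Atp2a2 short coding end (NM_009722): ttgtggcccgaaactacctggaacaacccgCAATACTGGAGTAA
Atp2a2 long coding end (NM_001110140): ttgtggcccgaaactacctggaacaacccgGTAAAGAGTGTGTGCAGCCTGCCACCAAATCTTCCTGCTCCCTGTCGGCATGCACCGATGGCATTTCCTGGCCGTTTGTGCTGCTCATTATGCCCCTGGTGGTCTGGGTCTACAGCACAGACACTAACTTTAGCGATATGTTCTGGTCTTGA
The short form has 998 codons and the long form 1044.

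The table holds 3 Atp2a2 rows, and the row of the largest count, NR_027838, contains the exons of both ends. A read can count on several rows, so the counts that NR_027838 has beyond each other row describe the ends, provided that reads were counted on every transcript they overlap. Beyond the long row, NR_027838 had 56239, 53677 and 55281 heart counts and 803, 954 and 686 quadriceps counts. These fall mostly on the last exon of the short form. Beyond the short row it had 4131, 4091 and 3744 heart counts and 281, 247 and 202 quadriceps counts, which fall on sequence that the short form lacks. The second quantity was 7.35%, 7.62% and 6.77% of the first in heart and 34.99%, 25.9% and 29.4% in quadriceps. These differences were taken after the counts were seen and carry no test. The stretches compared differ in length. Both also include the part of NR_027838 from chr5:122455893 up to the long form's exon at chr5:122456340, so that reads there enter both quantities. The percentages are therefore not shares of the 2 pumps. All 3 rows fell in quadriceps, with log2 fold changes from -5.66 to -5.54.

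Phospholamban, encoded by Pln, and sarcolipin, encoded by Sln, are single-span membrane peptides that bind SERCA and lower its activity. Their whole coding sequences are shown because these are the smallest proteins of the set, with 52 and 31 codons, and because Sln was the 1 gene that passed in neither direction. Start and stop codons are in capitals. Sln reads from chr9:53853473-53853568 and Pln from chr10:53343864-53344022, both on the plus strand of mm10.
Sln: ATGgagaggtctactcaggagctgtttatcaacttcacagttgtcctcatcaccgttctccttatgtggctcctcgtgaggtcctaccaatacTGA
Pln: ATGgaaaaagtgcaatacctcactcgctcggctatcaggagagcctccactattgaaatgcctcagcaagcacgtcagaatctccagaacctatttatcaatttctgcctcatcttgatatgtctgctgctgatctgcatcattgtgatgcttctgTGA
Translated and aligned, the peptides shared 11 of 29 aligned residues (37.9%).

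Pln (gene at chr10:53337667-53345987) had 178449, 184265 and 171315 heart counts and 79, 67 and 37 quadriceps counts. Its mean fell from 3800 ± 170 to 2.60 ± 0.443 CPM, a log2 fold change of -10.50 (SE 0.21, adjusted p = 1.78e-09). Of the quadriceps transcripts of the pump and its cardiac regulator, Pln thus stood lower against its heart level (0.0684%) than Atp2a2 (2.16%). The gene Cep85l lies over Pln on the opposite strand.

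Sln (gene at chr9:53850164-53854560, plus strand) had 838, 48 and 2 heart counts and 161, 58 and 60 quadriceps counts. The heart libraries spread over a wider range than the quadriceps libraries and enclosed them on both sides. The means were 6.20 ± 9.88 CPM in heart and 3.91 ± 1.80 CPM in quadriceps, with a log2 fold change of -0.65 (SE 1.16, adjusted p = 0.638). Without heart replicate 1 the log2 fold change was 2.91 (adjusted p = 0.00767), higher in quadriceps, and then 5 of the 10 genes were higher. In quadriceps, Sln was present at 0.00715, 0.00194 and 0.00293 transcripts per Atp2a1 transcript, compared as RPKM within each library.

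Sln is also known from atrial muscle, and the atrial markers Myl7, Myl4 and Nppa differed between the heart libraries in the same order. Of the 4 atrial markers, the atrial light chain gene Myl7 had 2075, 164 and 3 counts in heart replicates 1, 2 and 3. The other atrial light chain gene, Myl4, had 6811, 756 and 91 counts. Nppa, which encodes atrial natriuretic peptide and was the most abundant of the list, had 21763, 20012 and 8000 counts. Bmp10, a defining atrial gene, had 0, 0 and 1 counts. Summed CPM of the list were 643, 416 and 188 in heart and 6.32, 3.55 and 4.29 in quadriceps. The general cardiomyocyte gene Myh6 varied less, with 933029, 889236 and 768767 counts. The part of the atrial genes in the Sln counts was not tested.

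**Figure D2:**
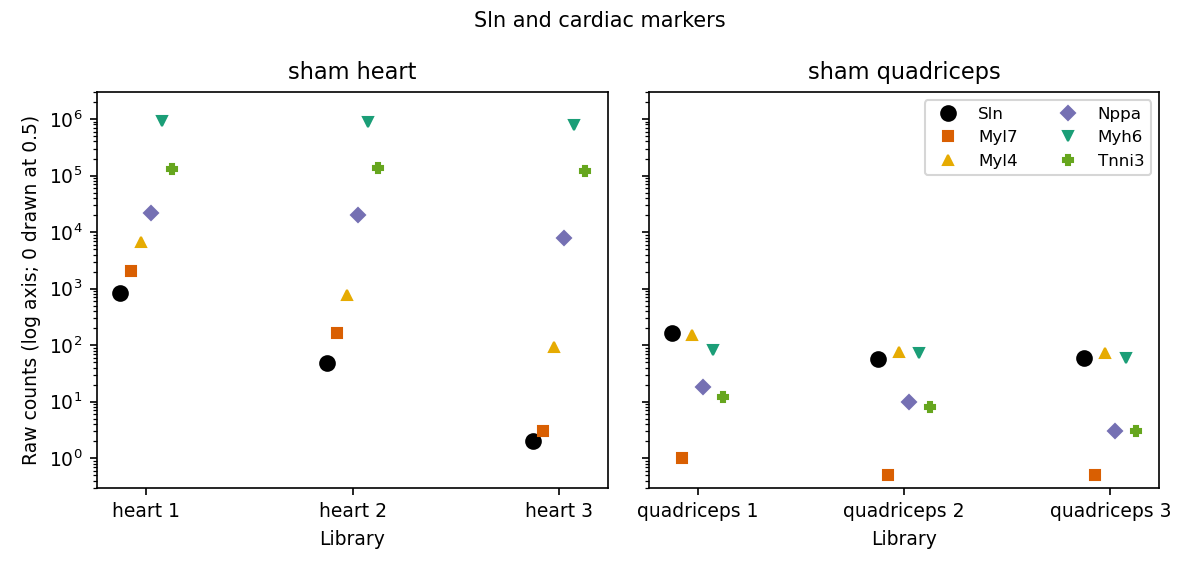
Raw counts (log axis, 0 drawn at 0.5) of Sln, the atrial markers Myl7, Myl4 and Nppa and the cardiomyocyte markers Myh6 and Tnni3 in each of 3 sham heart and 3 sham quadriceps libraries. Sln, Myl7 and Myl4 are highest in heart 1 and lowest in heart 3, with Sln at 838, 48 and 2 counts, while Myh6 stays between 768767 and 933029.

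Ryr1 and Ryr2 encode the ryanodine receptors, the release channels of the sarcoplasmic reticulum. Ryr1 (chr7:29003344-29125179, minus strand) had 7, 12 and 6 heart counts and 33132, 39549 and 28792 quadriceps counts. Its mean rose from 0.175 ± 0.0551 to 1500 ± 244 CPM, a log2 fold change of 13.02 (SE 0.28, adjusted p = 1.78e-09). Ryr2 (chr13:11553102-12106945, minus strand) had 54458, 53823 and 41636 heart counts and 4, 0 and 2 quadriceps counts. Every heart library was above every quadriceps library, and the quadriceps counts were close to the limit of 3 counts that a count of 0 allows.

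The mean of Ryr2 fell from 1061 ± 87.2 to 0.0867 ± 0.0770 CPM, with a fitted log2 fold change of -13.51 (SE 0.33, adjusted p = 2.99e-09). It was -14.30 without quadriceps replicate 1 and -12.92 without quadriceps replicate 2. On the 6 summed quadriceps counts the ratio of means was 12237, with a 95% Poisson interval of 5622 to 33345. This interval, like each one given below, covers counting error only. Per length, the summed level of both receptors was 82.4 ± 6.48 RPKM in heart and 75.3 ± 7.66 RPKM in quadriceps (exact permutation p = 0.4). With TMM the order turned, 63.5 ± 5.22 CPM per kilobase in heart and 98.3 ± 16.0 in quadriceps (exact permutation p = 0.1). Antisense genes lie over part of Ryr1.

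Casq1 and Casq2 encode calsequestrin 1 and 2, the calcium-binding proteins of the store. Among the 9 genes that passed the test, these 2 kept the largest share of their level in the other tissue. Casq1 (chr1:172209894-172219868, minus strand) had 3175, 6569 and 4589 heart counts and 59824, 75274 and 45474 quadriceps counts. The mean rose from 101 ± 32.3 to 2639 ± 477 CPM, a log2 fold change of 4.70 (SE 0.28, adjusted p = 6.08e-07), and heart held 3.84% of the quadriceps level. Of 8 fast-fiber markers the most abundant in heart was Mybpc2, with 1207, 1118 and 833 counts, and each of the other 7 had at most 50 counts in any heart library. Actn3, the fast-fiber alpha-actinin, had 3, 4 and 1.

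Casq2 (chr3:102086415-102146514, plus strand) had 37754, 34477 and 31551 heart counts and 1430, 651 and 677 quadriceps counts. The mean fell from 738 ± 53.7 to 39.4 ± 12.7 CPM, a log2 fold change of -4.23 (SE 0.24, adjusted p = 4.18e-07), and quadriceps held 5.34% of the heart level. Unlike the ryanodine receptor pair, the calsequestrins summed to a higher level in quadriceps on both scales. Their summed RPKM was 453 ± 2.24 in heart and 1098 ± 121 in quadriceps, a ratio of 2.42, which was 4.10 with TMM (exact permutation p = 0.1 on each scale).

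Cacna1s and Cacna1c encode the pore-forming subunits of the L-type calcium channels, Cav1.1 of skeletal muscle and Cav1.2 of heart and smooth muscle. Cacna1s (chr1:136052750-136119822, plus strand) had 344, 414 and 360 heart counts and 10215, 11513 and 7960 quadriceps counts. The mean rose from 7.95 ± 0.631 to 436 ± 54.3 CPM, a log2 fold change of 5.78 (SE 0.15, adjusted p = 4.03e-09). Like Casq1, it was measurable in every heart library, at 1.82% of the quadriceps level.

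Cacna1c (chr6:118587240-119196418, minus strand) had 7489, 7901 and 6742 heart counts and 55, 38 and 42 quadriceps counts. Its heart libraries were the closest of any of the 10 genes, at 157 ± 0.121 CPM. Quadriceps had 1.99 ± 0.393 CPM, a log2 fold change of -6.31 (SE 0.15, adjusted p = 2.62e-09). Its 11 transcript rows, which share most reads, gave log2 fold changes from -6.33 to -6.25. The gene Dcp1b overlaps Cacna1c on the opposite strand. Smooth muscle also uses Cav1.2. Of 4 smooth muscle markers, with TMM, Tagln was higher in quadriceps (log2 fold change 0.76), Acta2 was lower (-1.29), and Myh11 (0.05) and Cnn1 (0.12) did not pass. Their summed CPM was 98.0, 88.2 and 111 in heart and 68.9, 64.3 and 85.9 in quadriceps, and their part in the Cacna1c counts was not tested. The channels summed to 17.0 ± 0.272 RPKM in heart and 54.5 ± 3.06 RPKM in quadriceps, a ratio of 3.20, which was 5.42 with TMM (exact permutation p = 0.1 on each scale).

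Quadriceps replicate 1 stood apart from the other quadriceps libraries in several of these genes. It had the lowest CPM of Atp2a1, Atp2a2, Ryr1, Casq1 and Cacna1s and the highest of Casq2, Sln, Pln and Ryr2. Its summed CPM of 8 fast-fiber markers was also the lowest, 61996 against 82680 and 87127. The most abundant, Myh4, had 20576, 30354 and 40022 CPM in replicates 1, 2 and 3, while Myh1 and Myh2 were lowest in replicate 2 and Tnni2 in replicate 3. Its summed CPM of 3 adipocyte markers was the highest, 64.7 against 25.8 and 9.10, led by the adipocyte hormone gene Adipoq with 1183, 425 and 94 counts in replicates 1, 2 and 3. Ucp1, which marks brown adipocytes, had 65, 1 and 0 counts. The part of these cell types in the values was not tested. Without quadriceps replicate 1, the calls of all 10 genes were as given above.

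Ratios within a library do not depend on how libraries are scaled. For each pair, the log2 ratio of RPKM of the skeletal to the cardiac gene was negative in all heart libraries and positive in all quadriceps libraries. The direction of 4 of the pairs follows from the calls above. Libraries with under 3 counts were set to 3 counts, which applied to Sln in heart replicate 3 and to Ryr2 in quadriceps replicates 2 and 3. Each of the 5 differences between tissues had an exact two-sided permutation p of 0.1, the smallest possible with n = 3 each, and 0.1 after adjustment over the 5.

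The Ryr1 to Ryr2 ratio was -12.48 ± 0.42 in heart and 13.44 ± 0.34 in quadriceps on the log2 scale, a difference of 25.92. The Atp2a1 to Atp2a2 ratio went from -13.96 ± 1.01 to 6.27 ± 0.13, a difference of 20.23. These pairs differed most between the tissues. For Sln and Pln the log2 ratio was -9.55 ± 4.03 in heart and 2.77 ± 0.64 in quadriceps. For Cacna1s and Cacna1c it was -3.20 ± 0.12 and 8.90 ± 0.40, and for Casq1 and Casq2 it was -2.49 ± 0.60 and 6.53 ± 0.73. As a share of the pair, Casq1 made up 10.2%, 20.4% and 16.4% of calsequestrin RPKM in heart and 98.3%, 99.4% and 98.9% in quadriceps. Cacna1s made up 9.04%, 10.2% and 10.4% of L-type channel RPKM in heart. Sln made up 90.7%, 80.6% and 88.6% of the regulator RPKM in quadriceps although its own level did not pass the test between tissues.

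**Figure D3:**
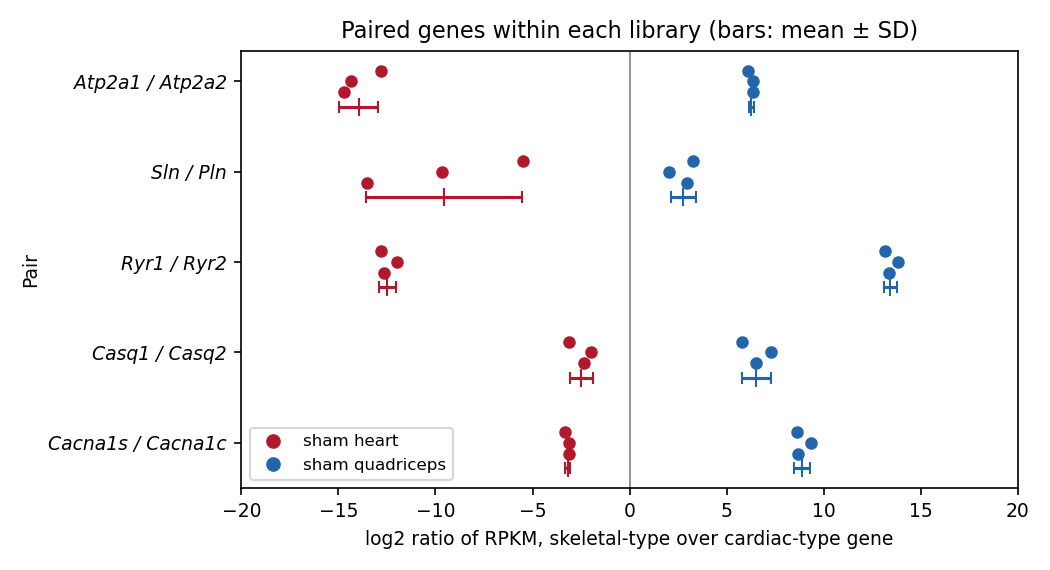
Log2 ratio of RPKM of the skeletal-type over the cardiac-type gene of 5 pairs, with 1 point per sham heart (red) and sham quadriceps (blue) library and the mean ± SD under the points. All heart points lie below 0 and all quadriceps points above it, with the widest spread for Sln and Pln in heart (SD 4.03).

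The pairs differ in how alike their proteins are. Over aligned residues, the translated coding sequences were 84.5% identical for Atp2a1 and Atp2a2, 67.9% for Cacna1s and Cacna1c, 67.3% for Ryr1 and Ryr2, 66.1% for Casq1 and Casq2 and 37.9% for Sln and Pln.

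The genes were also set against each other by role, taking the form that leads in each tissue. These 4 ratios of RPKM were chosen after the values were seen. The pump to release channel ratio was 18.1, 19.0 and 22.2 in heart (Atp2a2 to Ryr2) and 20.1, 22.4 and 21.0 in quadriceps (Atp2a1 to Ryr1). These ranges overlapped, and the means of 19.8 ± 2.17 and 21.2 ± 1.15 gave an exact permutation p of 0.4 (n = 3 each). With the shorter Atp2a2 row NM_009722 the heart ratios were 23.7, 24.9 and 29.2, all above quadriceps (exact permutation p = 0.1), so that this comparison depends on the row. The other 3 ratios did not overlap between tissues, each with an exact permutation p of 0.1, or 0.133 adjusted over the 4.

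Calsequestrin to release channel was 4.66 ± 0.392 in heart and 14.4 ± 1.36 in quadriceps. Release channel to surface channel was 5.37 ± 0.438 in heart (Ryr2 to Cacna1c) and 1.38 ± 0.0752 in quadriceps (Ryr1 to Cacna1s), so that the transcripts of channel and receptor were closer to equal in quadriceps. Small regulator to pump was 1.23 ± 0.0176 in heart (Pln to Atp2a2) and 0.00400 ± 0.00277 in quadriceps (Sln to Atp2a1). With NM_009722 the heart ratio was 0.937 ± 0.0133, so that whether Pln or Atp2a2 was higher per length depends on the row. In quadriceps Mrln, a further small inhibitor of SERCA, stood at 0.0669 ± 0.00712 of Atp2a1, above Sln. The transcripts compared range from 516 bases for Sln to 16706 for Ryr2, and uneven coverage of long or very short transcripts was not tested.

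**Figure D4:**
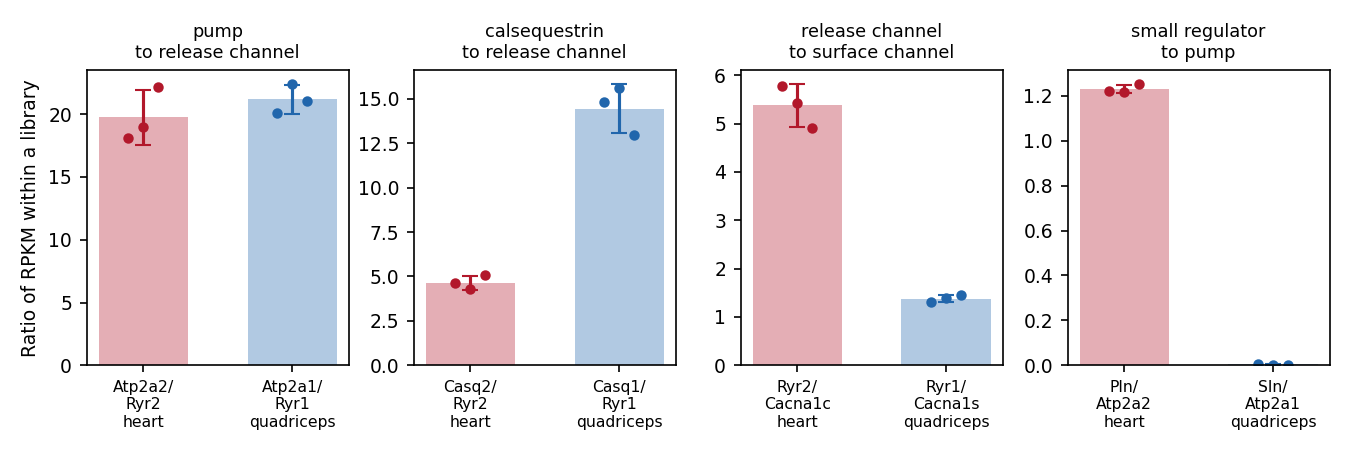
Ratio of RPKM between the leading genes of different roles within each library, with bars from 0 at the mean of 3 libraries, error bars for the SD and 1 point per library, for sham heart (red) and sham quadriceps (blue). Atp2a2 is taken from NR_027838, and the pump to release channel overlap (19.8 and 21.2) is lost with NM_009722. Release channel to surface channel is 5.37 in heart and 1.38 in quadriceps.

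Ranked per length, the heart order was Pln (1992 ± 85.7 RPKM), Atp2a2 (1618 ± 46.3), Casq2 (383 ± 24.1), Ryr2 (82.4 ± 6.48), Casq1 (70.8 ± 23.2), Sln (15.5 ± 24.6), Cacna1c (15.3 ± 0.142), Cacna1s (1.68 ± 0.146), Atp2a1 (0.120 ± 0.0881) and Ryr1 (0.0149 ± 0.00483). Pln and Atp2a2 exchange ranks with NM_009722, which puts Atp2a2 at 2125 ± 60.9 RPKM. The libraries of Ryr2 and Casq1 overlapped, and those of Sln ran from 0.117 to 43.8 RPKM and so overlapped with Cacna1c, Cacna1s and Atp2a1. In quadriceps the order was Atp2a1 (1598 ± 228 RPKM), Casq1 (1085 ± 126), Ryr1 (75.3 ± 7.66), Cacna1s (54.4 ± 3.07), Atp2a2 (20.6 ± 1.21), Casq2 (12.3 ± 4.85), Sln (5.98 ± 3.20), Pln (0.813 ± 0.169), Cacna1c (0.116 ± 0.0259) and Ryr2 (0.00415 ± 0.00376). There the neighbors Casq2 and Sln overlapped. In heart, Casq1 ranked next to the cardiac release channel, while Cacna1s, Atp2a1 and Ryr1 ranked below all cardiac forms. In quadriceps, Atp2a2 and Casq2 ranked above Sln by their means.

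The genes whose values over the 6 libraries lay closest to each member were found by Euclidean distance of log2 CPM. Closest to Atp2a1 was Tnni2, the fast troponin I gene (distance 1.13), and closest to Ryr1 was Mybpc1 (1.69), a myosin-binding protein gene. Closest to Atp2a2 were the myosin light chain gene Myl2 (1.01) and the cardiac actin gene Actc1 (1.14). For Pln it was the cardiac troponin T gene Tnnt2 (1.998), and for Ryr2 the desmosome gene Dsp (1.25). Cacna1c had the closest neighbors, Fblim1 (0.562), Perp (0.727) and Ndrg4 (0.763). Cacna1s lay nearest to Pdlim3 (1.22) and Tmod4 (1.24), Casq2 to Nnt (1.23), and Casq1 to the less well described A930016O22Rik (2.24). Sln had no close neighbor, the nearest being Shox2 at a distance of 3.95. These distances are over 3 libraries of each tissue and mainly reflect the levels in the tissues.

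The stretches upstream of the genes were searched for letters of known muscle motifs, since several members moved together. RefSeq promoter windows of GRCm38 matched 8 of the 10 genes in 10 windows, 3 of them for Cacna1c. Windows for Atp2a2 and Sln were not matched. Over the 250 bases before the start, on both strands, CANNTG (the E-box bound by MyoD-type factors) was found in 9 of 10 windows and in 66.2% of 32851 windows of all genes. CAGCTG, a form of that E-box, was found in 3 of 10 windows and in 13.0% of all. The 3 belong to Atp2a1, Casq1 and Cacna1s, so that 3 of 4 windows of skeletal forms and 0 of 6 windows of cardiac forms held it. These are matches of letters in a window.

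Other motifs were rarer in these windows. The GATA sequence AGATAA was found in 1 window (Pln), against 9.99% of all. The MEF2 motif was found in 1 window (Casq2), against 2.92%, and the CArG motif in 0, against 1.47%.

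The letters TATAAA, those of the TATA box, were found in 1 window (Pln, at -219 from the start), against 12.4%.

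The upstream stretches with CAGCTG are shown with it in capitals, at -55 in Atp2a1, -195 in Casq1 and -123 in Cacna1s, counted to the first base of the match from -1 just before the start. That of Casq2 is shown with its MEF2 match at -69 in capitals. They read from chr7:126463109-126463323 (minus strand), chr1:172219896-172220145 (minus), chr1:136052561-136052749 (plus) and chr3:102086165-102086414 (plus).
Atp2a1: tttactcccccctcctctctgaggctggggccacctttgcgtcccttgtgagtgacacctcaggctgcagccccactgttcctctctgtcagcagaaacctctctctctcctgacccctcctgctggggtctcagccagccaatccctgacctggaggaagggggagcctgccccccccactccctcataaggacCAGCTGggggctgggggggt
Casq1: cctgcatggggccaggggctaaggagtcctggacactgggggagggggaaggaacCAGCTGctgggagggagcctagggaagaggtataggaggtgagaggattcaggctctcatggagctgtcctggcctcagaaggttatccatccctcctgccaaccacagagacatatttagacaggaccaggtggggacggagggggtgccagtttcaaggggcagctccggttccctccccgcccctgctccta
Cacna1s: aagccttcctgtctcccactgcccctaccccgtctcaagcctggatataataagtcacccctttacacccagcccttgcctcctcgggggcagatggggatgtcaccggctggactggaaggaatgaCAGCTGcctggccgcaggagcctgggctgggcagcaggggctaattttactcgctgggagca
Casq2: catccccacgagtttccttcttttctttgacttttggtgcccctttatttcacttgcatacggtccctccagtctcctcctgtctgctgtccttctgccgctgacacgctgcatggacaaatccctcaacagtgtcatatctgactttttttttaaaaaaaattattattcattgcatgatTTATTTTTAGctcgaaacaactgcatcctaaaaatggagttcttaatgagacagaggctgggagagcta

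Other genes of calcium handling were followed through 5 lists that hold 64 genes, of which 61 were matched and tested. The lists were chosen with earlier results of these data known. The shares of all genes, here and for each list below, are therefore given beside the counts and are not a test. By the fold criterion 19 were higher in quadriceps (31.1%, against 7.14% of all tested genes) and 9 lower (14.8%, against 9.04%). By adjusted p under 0.05, 30 were higher (49.2%, against 32.1%), 21 were lower (34.4%, against 33.9%) and 10 did not pass, so that the share lower was near that of all genes. With library totals the fold criterion called 16 higher, against 4.82% of all genes, and 15 lower, against 17.5%. Their median log2 fold change was 0.61, against -0.05 for all tested genes. With library totals the medians were -0.15 and -0.80, and the sign turned for Srl, Fkbp1b, Itpr1, Stac and Atp2b1.

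**Figure D5:**
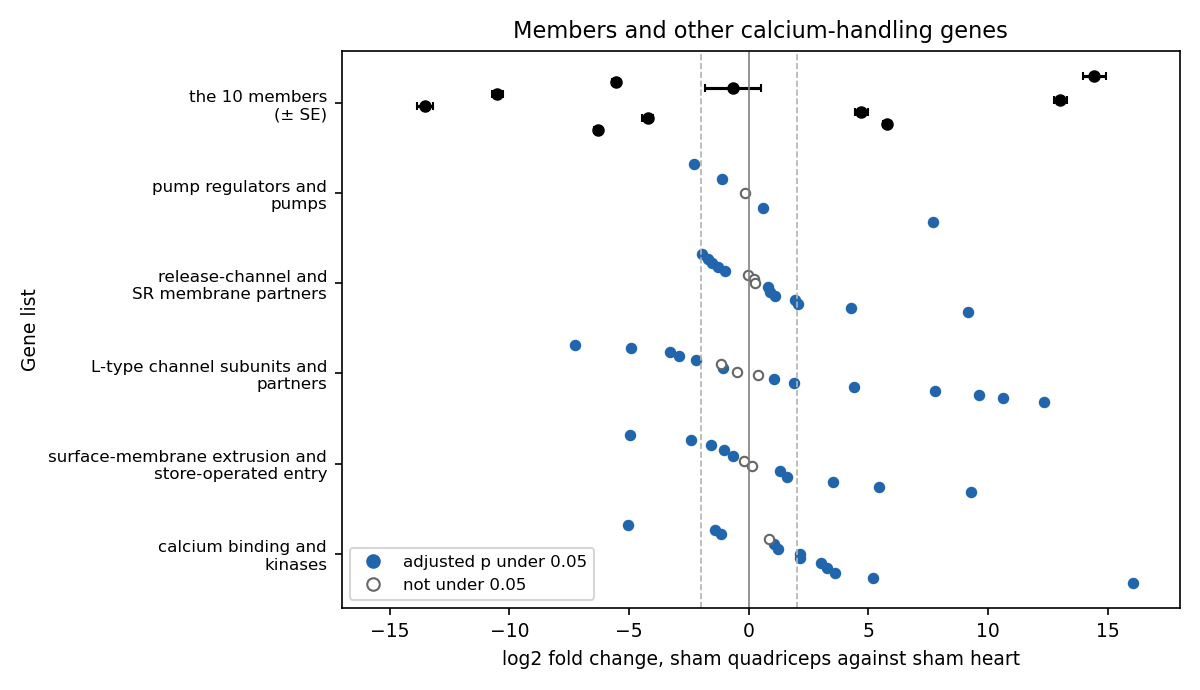
Log2 fold change of sham quadriceps against sham heart for the 10 genes (black, with SE) and for the 61 other calcium-handling genes in 5 lists, 1 point per gene; filled points have an adjusted p under 0.05 and dashed lines mark a fold change of 2 on the log2 scale. The lists spread in both directions, from -7.25 for Cacnb2 to 16.05 for Pvalb.

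Of 5 pump regulators and pumps, 2 were higher, 2 lower and 1 did not pass at an adjusted p under 0.05, where 32.1% of all genes were higher and 33.9% lower. Mrln, which encodes the SERCA-inhibiting peptide myoregulin, had 6, 15 and 20 heart counts and 1446, 1618 and 1092 quadriceps counts, a log2 fold change of 7.68 (SE 0.28, adjusted p = 2.29e-08). Every quadriceps library was above every heart library for Mrln, which was not so for Sln. S100a1, a calcium-binding protein gene, fell by 2.29 on the log2 scale and the pump gene Atp2a3 fell by 1.11. Srl, which encodes sarcalumenin of the store lumen, rose by 0.61 with TMM but had a log2 fold change of -0.15 with library totals. Hrc, encoding a histidine-rich calcium-binding protein, was at -0.14 with TMM (adjusted p = 0.348) and at -0.90 with library totals.

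Among 15 partners of the release channel and store membrane, 7 were higher (46.7%, against 32.1% of all genes), 5 lower (33.3%, against 33.9%) and 3 did not pass. Jsrp1, whose protein sits at the junction with the surface membrane, had 9, 11 and 11 heart counts and 2810, 3404 and 2429 quadriceps counts, a log2 fold change of 9.16 (SE 0.21). The junctophilin gene Jph1 rose by 4.28 (SE 0.14), while its relative Jph2 rose by 0.87 with TMM but by only 0.11 with library totals. The ryanodine receptor gene Ryr3 fell by 1.95 (SE 0.27) and the inositol trisphosphate receptor gene Itpr2 by 1.70 (SE 0.20). Ryr3 had 227, 153 and 146 heart counts and 29, 15 and 22 quadriceps counts, far fewer than the leading receptor of either tissue.

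Of the 16 L-type channel subunits and partners, 7 were higher (43.8%, against 32.1% of all genes), 6 lower (37.5%, against 33.9%) and 3 did not pass. Cacng1, the gamma subunit of the skeletal channel, had 1, 3 and 0 heart counts and 3189, 4388 and 3441 quadriceps counts, a ratio of means of 6141 (95% Poisson interval 2399 to 22539). Cacng6 had 1, 2 and 2 heart counts and 1421, 1636 and 1083 quadriceps counts, a ratio of 1694 (interval 726 to 5218). The beta subunits moved in opposite directions, where Cacnb1 rose by 4.38 on the log2 scale and Cacnb2 fell by 7.25 (SE 0.19). Stac3, which couples the skeletal channel to release, rose by 9.63. Rrad, an inhibitor of the channel, fell by 4.93 (SE 0.64), and its quadriceps counts of 33, 27 and 162 were uneven.

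For extrusion and store-operated entry, 5 of 12 genes were higher and 5 lower (41.7% each, against 32.1% and 33.9% of all genes), and 2 did not pass. The sodium-calcium exchanger genes moved in opposite directions. Slc8a1, the cardiac exchanger, had 6268, 6163 and 5061 heart counts and 682, 462 and 461 quadriceps counts and fell by 2.40 (SE 0.13). Slc8a3 had 5, 3 and 1 heart counts and 1285, 801 and 777 quadriceps counts, a ratio of means of 663 (interval 349 to 1451). Of the surface pumps, Atp2b3 rose by 5.44 (SE 0.26), while Atp2b2, with 6, 0 and 2 counts in quadriceps, was 33.0 times higher in heart (interval 16.7 to 76.4). Stim1, the calcium sensor of the store, rose by 3.51.

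Of 13 calcium-binding proteins and kinase or phosphodiesterase genes, 9 were higher (69.2%, against 32.1% of all genes), 3 lower (23.1%, against 33.9%) and 1 did not pass. Pvalb, the calcium buffer parvalbumin of fast fibers, had 9, 4 and 1 heart counts and 175090, 187037 and 117137 quadriceps counts, with a fitted log2 fold change of 16.05 (SE 0.39). That of Ppp1r1a, a phosphatase inhibitor gene, was 5.18 (SE 0.22). Pde3a, a phosphodiesterase known to regulate SERCA2 through phospholamban, fell by 5.05 (SE 0.22), and Prkaca, the catalytic subunit of the kinase that phosphorylates phospholamban, fell by 1.40 (SE 0.13). Of the calmodulin-dependent kinase genes, Camk2a rose by 3.62, Camk2b by 3.02 and Camk2g by 2.14, while Camk2d fell by 1.14.

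The response to TAC could not be followed for the 10 genes, which are not among the 586 genes tested in the table of TAC against sham quadriceps and were not analysed here. That table is a selected set of genes and uses the same sham quadriceps libraries. Its listed genes hold 917422 of the 32651317 counts of sham quadriceps replicate 1, so that TMM there rests on a small part of each library. Shares of that table are not shares of all genes. Of the other calcium-handling genes 3 were listed, and 2 passed at an adjusted p under 0.05, against 29.7% of the table. Ppp1r1a had 982, 689 and 449 counts in sham and 1659, 1530 and 2882 after TAC, with a log2 fold change of 1.503 (SE 0.29, adjusted p = 0.00897). Calr, which encodes the store protein calreticulin, had 2246, 2486 and 1805 counts in sham and 3911, 3372 and 6110 in TAC, a log2 fold change of 0.95 (SE 0.28, adjusted p = 0.0337). Sri, encoding sorcin, was at -0.22 on the log2 scale (SE 0.23, adjusted p = 0.495). With library totals, known for 5 of the 6 libraries, the log2 fold changes of Ppp1r1a, Calr and Sri were 0.482, 0.0167 and -0.804. Their adjusted p-values were 0.162, 0.948 and 0.0694, and the median of the table moved from 0.0292 to -0.63. The unknown total is that of the third TAC library, so these moves are not put down to the scaling alone. The third TAC library carries a number that matches no label and was used as a TAC library without a number.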

How the data were processed

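RNA sequencing was analysed in 3 sham heart, 3 sham quadriceps and 3 TAC quadriceps libraries. Per the authors, single-end reads passed through Trim Galore and STAR (mm10), and the deposited raw counts of each RefSeq transcript came from Rsubread. The strand and multiple-overlap settings are not given in the sources used here. The deposited RPKM values are counts divided by transcript length and library total. The columns of the authors' own fold changes and p-values were not used, and 1 RPKM column of a single library was left unused.

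The test was the quasi-likelihood test of edgeR 4.0.16 (R 4.3.3) after TMM, on transcripts that exceeded 5 counts in 2 or more libraries (Benjamini-Hochberg adjustment over 24280 transcripts). Each gene was represented by its transcript with the largest mean count. Of each list, the genes named by rule were the 2 largest changes in each direction that passed without overlap. Hrc, Jph2, Cacnb1, Stac3, Stim1, Camk2a, Camk2b, Camk2d and Camk2g were named after their values were seen. The members and lists were chosen with earlier results of these data known. Nearest genes were the 3 with the smallest distance. Gene positions and coding sequences came from GENCODE vM21 (GRCm38), matched to RefSeq transcripts, and promoter windows from RefSeq. Replicates differed beyond sampling noise (chi-square per degree of freedom at least 7.70). The procedure was tested on simulated data. Alternatives were DESeq2 1.42.0, limma 3.58.1 on log2 RPKM plus 0.1, 0.5 or 1, library totals, other filters, a replicate block and leaving out each library. Python 3.11.15, pandas 2.3.3, numpy 2.4.6, scipy 1.17.1 and Biopython 1.88 were used.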

Additional observations from a re-analysis of the deposited data

How the results depend on the processing

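The direction and call of 9 of the 10 genes were the same in every alternative run, but Atp2a1, Sln, Ryr1 and Ryr2 were not tested where at least 10 counts in every library were required, which left 2 genes called higher in quadriceps. That filter left 10 other calcium-handling genes called higher. Sln changed direction, with log2 fold changes of 0.95, 0.48 and 0.23 in limma on log2 RPKM plus 0.1, 0.5 and 1, 0.59 with the replicate block, and from -1.23 to 2.91 when 1 library was left out; its adjusted p was 0.00767 without heart replicate 1. DESeq2 gave no adjusted p for Sln. The cause of the change was not tested.

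Larger pseudocounts on RPKM shrank the changes of genes near 0 in 1 tissue. From a pseudocount of 0.1 to 1 in limma, the log2 fold change went from 12.89 to 10.47 for Atp2a1 and from 9.35 to 6.23 for Ryr1. It went from -9.63 to -6.37 for Ryr2, from 4.94 to 4.37 for Cacna1s and from -6.165 to -3.87 for Cacna1c. These fits also differ from the main fit in scaling and model.

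With library totals 15 other calcium-handling genes were lower in quadriceps, where 17.5% of all tested genes were. With TMM 9 were lower, where 9.04% of all tested genes were. Library totals moved the median of all genes by -0.748. Without a fold threshold, an alternative chosen after seeing the data, 30 other calcium-handling genes were higher and 21 lower, against 32.1% and 33.9% of all genes. In the fit with the replicate block, 4 and 5 of the 10 genes and 19 and 9 of the others were called; same-numbered libraries showed no shared deviation (r = 0.0337, -0.0508 and 0.0275), and whether the numbers mark the same mice is not known here. With log2(RPKM + 0.1) in both genes of a pair, the differences between tissues were 19.18 for the SERCA pair, 18.98 for the ryanodine receptors and 11.10 for the L-type channels, since a pseudocount shrinks ratios of genes near 0. With 3 libraries per group, no single ratio can reach p under 0.05 in the exact permutation test that was used for ratios. Depth limits Atp2a1 and Ryr1 in heart and Ryr2 in quadriceps, whose levels rest on 45, 25 and 6 counts. The Atp2a2 row NM_009722, also chosen after seeing the data, moved the pump to release channel ratio in heart from 19.8 to 25.9.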
